A study of Mus musculus with 2 samples.

Results

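The interferon-induced GTPases followed here are Gbp2, Gbp3, Gbp4, Gbp5, Gbp7, Igtp, Irgm1, Irgm2, Iigp1 and Ifi47. These 10 genes were taken from the 20299 genes of the deposited matrix by their symbols, as a readout of the response to interferon gamma, and all 10 were found. Their unique molecular identifiers (UMIs, 1 per captured transcript) were summed over the cells of each cluster and library. The cells came from kidneys of C57BL/6 mice aged 8 weeks with nephrotoxic nephritis (NTN), a model in which antibodies against the glomerulus injure the kidney. All mice had received 200 µg of sheep IgG emulsified with complete Freund's adjuvant and, 4 days later, 2 µL/g of sheep nephrotoxic serum by the labels, while the study's methods give another dose. One library came from WT mice and 1 from Vsir-/- mice, which lack the immune checkpoint molecule VISTA in all cells. The label of the WT library names sorted CD45+ cells and that of the Vsir-/- library names every kind of kidney cell, although the study's methods describe a CD45+ sort for both. Genotype, sort and library therefore cannot be told apart, and the number of mice pooled per library is not given in the sources used here.

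Guanylate-binding proteins (GBPs) and immunity-related GTPases (IRGs) are among the most strongly induced genes when interferon gamma binds its receptor. GBPs assemble on the membranes of vacuoles that hold pathogens and on pathogens themselves, and some of them feed into inflammasome activation. Among the IRGs, Irgm1, Irgm2 and Igtp (also called Irgm3) encode regulators that sit on the cell's own membranes and hold the effector IRGs in check. Iigp1 (Irga6) and Ifi47 (Irgd) encode effector-type IRGs. These genes also respond to type I interferons, so their transcripts alone do not name the ligand.

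Gbp2 (ENSMUSG00000028270, chr3:142620602-142638008), Gbp3 (chr3:142560026-142573209), Gbp5 (chr3:142493978-142522344) and Gbp7 (chr3:142530342-142550149) lie next to each other on the plus strand in GENCODE M21 (GRCm38). Gbp4 lies at chr5:105115767-105139586 on the minus strand. Igtp (chr11:58199556-58207591) and Irgm2 (chr11:58199618-58222782) share part of their annotated span on the plus strand, Irgm1 lies at chr11:48861968-48871683 on the minus strand and Ifi47 at chr11:49076587-49096974 on the plus strand. Iigp1 lies at chr18:60376027-60392634 on the plus strand. The files give symbols with no coordinates and the submitters' notes name mm9, so these positions serve only to place the genes. Reads in the shared span of Igtp and Irgm2, in that of Gbp4 with Gbp8 and Gbp9, and in that of Ifi47 with Olfr56 could be assigned to either gene, which makes the counts of these members less certain.

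The WT library held 5470 cells and 32799550 UMIs and the Vsir-/- library 1844 cells and 18601189 UMIs, with 5 cell barcodes present in both. Vsir itself had 4278 UMIs in the WT library and 8 in the Vsir-/- library. Of the authors' 16 clusters, 13 had at least 20 cells in each library, which left 130 member-by-cluster pairs for comparison. Transcripts of tubule and endothelium differed between the libraries in every such cluster. A list of 25 kidney tubule genes summed to between 26.6 and 318 CPM (UMIs per 1000000 UMIs of the same cells) in the WT clusters and to between 1532 and 16458 CPM in the Vsir-/- clusters. A list of 10 endothelial genes ranged from 24.6 to 159 CPM in the WT clusters and from 131 to 5596 CPM in the Vsir-/- clusters. The endothelial list was highest in the Vsir-/- proliferating (5596 CPM) and CD4+ T (non-EM-like) cell clusters (3331 CPM), in which 37.0% and 30.4% of cells held a Ptprc UMI (the gene of CD45), against 98.3% and 95.1% in the WT library. EM-like means effector memory-like.

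Across whole libraries, the 10 genes supplied 578 CPM in the WT library (95% interval 569 to 586) and 850 CPM in the Vsir-/- library (837 to 864). All intervals are exact and cover counting error only, because each genotype has 1 library and its spread between mice is unknown. The family did not move as a block. Iigp1 had 9.97 CPM in the WT library and 198 CPM in the Vsir-/- library, a log2 ratio of 4.31, and Irgm2 followed with 14.1 and 41.1 CPM (1.54). Gbp3 (27.7 and 52.8 CPM), Gbp7 (76.7 and 129 CPM), Irgm1 (53.9 and 80.8 CPM) and Igtp (69.9 and 91.6 CPM) were higher by less than 2-fold. Gbp2 (70.4 and 79.6 CPM), Gbp4 (56.7 and 52.6 CPM) and Gbp5 (19.5 and 18.9 CPM) were close in both libraries. Ifi47, the member with most UMIs in the WT library, went the other way, from 179 to 107 CPM (log2 ratio -0.75).

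**Figure D1:**
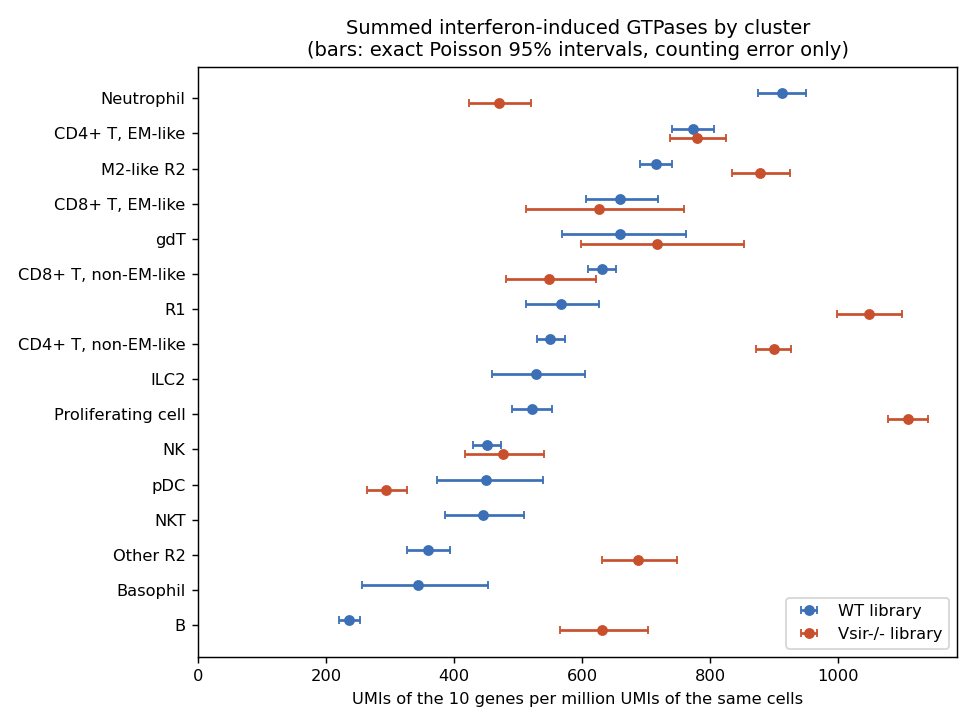
UMIs of the 10 genes per 1000000 UMIs of the same cells (horizontal axis) in each cluster (vertical axis, in WT order), with blue points for the WT library and orange points for the Vsir-/- library and bars for exact Poisson 95% intervals. Neutrophils lead the WT library (912 CPM) and lie at 470 CPM in the Vsir-/- library, whereas proliferating cells, R1 and B cells lie higher in the Vsir-/- library.

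Interferon acts on its target genes through short motifs, and promoter stretches that hold them are shown because most of the members' promoters in the table had at least 1. The interferon-stimulated response element (ISRE) binds interferon regulatory factors, and the gamma-activated site (GAS) is an element of genes that respond to interferon gamma. An ISRE-like run GAAANNGAAA and a GAS-like run TTCNNNGAA were searched on both strands in RefSeq promoters (GRCm38.p6, 250 bases before to 50 after a start). A GAS-like run can end in the letters that open an ISRE-like run, but no such overlap occurred in the members' promoters. The table matched 8 of the 10 genes, with 9 promoters. The ISRE-like run was in 7 of these 9 promoters and in 3.44% of 32851 mouse promoters, the GAS-like run in 4 of 9 and in 8.30%, and both together in 4 of 9 and in 0.454%. The promoters of Gbp2, Gbp3 and Irgm1 had only ISRE-like runs, and those of Gbp5, Gbp7, Igtp and Irgm2 had both. The promoter of Ifi47 and a second one of Gbp3 held neither run, which says only that these letters are not in those windows. A match is a description of the sequence and no binding was measured. The stretch of Gbp5 spans 222 bases, with 1 ISRE-like and 2 GAS-like runs, and is not printed. The other stretches around the matches read, 5′ to 3′ on the gene's strand, with both kinds of run in capitals:
Gbp2, chr3:142620589-142620628, plus strand, positions -74 to -35 from the start: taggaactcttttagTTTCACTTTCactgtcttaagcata
Gbp3, chr3:142559984-142560029, plus strand, positions -60 to -15: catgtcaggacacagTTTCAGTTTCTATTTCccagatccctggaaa
Gbp7, chr3:142530215-142530307, plus strand, positions -121 to -29: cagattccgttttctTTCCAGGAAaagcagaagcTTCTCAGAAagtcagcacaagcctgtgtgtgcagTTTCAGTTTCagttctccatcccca
Igtp, chr11:58199496-58199546, plus strand, positions -60 to -10: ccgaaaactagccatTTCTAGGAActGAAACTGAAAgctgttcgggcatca
Irgm2, chr11:58214887-58214937, plus strand, positions -90 to -40: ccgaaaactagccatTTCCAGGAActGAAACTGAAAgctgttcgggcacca
Irgm1, chr11:48871420-48871465, minus strand, positions -45 to 0: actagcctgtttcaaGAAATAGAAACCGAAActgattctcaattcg

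In Gbp2, Gbp3 and Gbp7 the ISRE-like run lies on the opposite strand and is read in reverse complement, and in Gbp3 and Irgm1 a pair of runs overlaps. The Igtp and Irgm2 stretches were identical at 49 of 51 bases, with the GAS-like run just before the ISRE-like run in each. Their transcripts nevertheless differed in level and in the contrast between libraries. Irgm2 had 14.1 CPM in the WT library and 41.1 CPM in the Vsir-/- library (log2 ratio 1.54, from 462 and 764 UMIs). Igtp had 69.9 and 91.6 CPM (log2 ratio 0.39, from 2291 and 1704 UMIs), so both were higher in the Vsir-/- library. The counts of both genes carry the limit given above for their shared span.

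In the WT library the summed genes were highest in neutrophils, at 912 CPM (875 to 950), followed by CD4+ T (EM-like) cells at 773 CPM and M2-like R2 macrophages at 715 CPM. R2 are kidney-infiltrating and R1 kidney-resident macrophages. B cells were lowest at 236 CPM (220 to 253). Neutrophils stood apart from the next cluster beyond counting error, and so did B cells from basophils, whereas from the second to the tenth place each neighbouring pair had overlapping intervals. In the Vsir-/- library the order was led by proliferating cells (1109 CPM) and R1 macrophages (1048 CPM), whose intervals overlapped, and ended with the cluster named pDC (plasmacytoid dendritic cells) at 293 CPM. Over the 13 clusters the orders in the libraries had a Spearman rho of 0.06, given as a description, since all clusters of a library share its depth and free RNA. The share of cells that carried the family differed too. In WT CD4+ T (EM-like) cells 92.0% of cells held at least 1 member UMI, in WT B cells 46.5%, and the tenth of WT neutrophils with most member UMIs held 54.1% of that cluster's member UMIs.

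**Figure D2:**
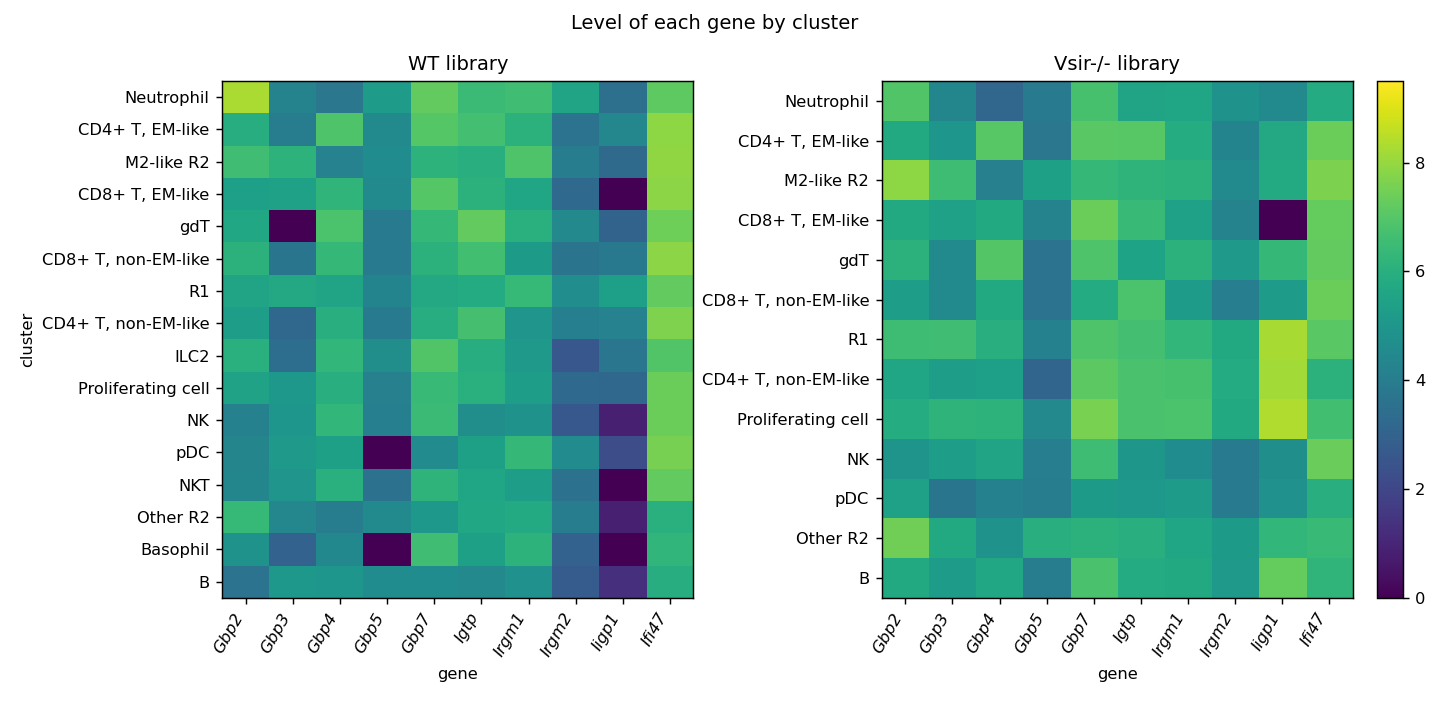
Level of each gene (columns) in each cluster with at least 20 cells (rows) in the WT library (left) and the Vsir-/- library (right), as log2(CPM + 1) by colour. In the WT library Ifi47 is brightest in M2-like R2 and the CD4+ and CD8+ T cell clusters, and Gbp2 in neutrophils. In the Vsir-/- library the Iigp1 column is bright in R1, CD4+ T (non-EM-like) and proliferating clusters.

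The leading member was not the same in all clusters. Ifi47 supplied more of the family's UMIs than any other member in 12 of 16 WT clusters, Gbp2 in neutrophils and Other R2, and Gbp7 in basophils and ILC2. The lead of Gbp7 over Ifi47 was narrow, at 28% and 22% of 50 UMIs in basophils and 23% and 22.5% of 213 UMIs in ILC2. In the Vsir-/- library Iigp1 took first place in B cells, CD4+ T (non-EM-like) cells, proliferating cells and R1. These are shares of UMIs from 3′-end libraries, which tag each transcript once and were not divided by length.

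Gbp2, one of the GBPs that act on vacuoles, was most abundant in WT neutrophils. It stood at 316 CPM in neutrophils (295 to 339), above the 94.9 CPM of M2-like R2 macrophages in the next place and the 11.2 CPM of B cells. In the Vsir-/- library it was lower in neutrophils at 121 CPM (97.8 to 148), a log2 ratio of -1.38. The opposite held in M2-like R2 macrophages, where it went from 94.9 CPM (86.0 to 105) to 237 CPM (214 to 262), a log2 ratio of 1.32. It was also higher in Other R2 (81.2 and 172 CPM) and B cells (11.2 and 53.4 CPM). The share of M2-like R2 cells with a Gbp2 UMI was 39.3% and 56.5% at median depths of 9699 and 10074 UMIs, and 11.7% and 18.2% after thinning each cell to 1000 UMIs, which left out 47 WT and 9 Vsir-/- cells. Neutrophil markers in that cluster summed to 4300 CPM in the WT library and 241 CPM in the Vsir-/- library, and macrophage markers to 670 and 1957 CPM, and their part in the difference was not tested. In B cells, the cluster with the lowest WT level, the shares with a Gbp2 UMI were 3.41% and 9.09% at median depths of 3426 and 3596 UMIs.

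Gbp7, whose gene lies between Gbp5 and Gbp3, was lower by at least 2-fold in none of 13 clusters, where 5.41% to 15.9% of all genes were. It was higher in 5, where 6.71% to 47.8% of all genes were. It read 23.6 and 109 CPM in B cells, 59.0 and 138 CPM in CD4+ T (non-EM-like) cells, 84.6 and 192 CPM in proliferating cells, 51.8 and 118 CPM in R1 and 32.8 and 67.3 CPM in Other R2. In CD4+ T (EM-like) cells it was 127 and 134 CPM and in neutrophils 147 and 107 CPM, less than 2-fold apart, and these clusters were among those in which WT cells had most of it. In Vsir-/- B cells 1 cell held 33 of the 57 Gbp7 UMIs.

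Gbp3 passed the filter of 20 UMIs over both libraries in 12 clusters. Its levels went from 8.08 to 38.7 CPM in CD4+ T (non-EM-like) cells, from 20.3 to 53.1 CPM in Other R2 and from 32.3 to 70.9 CPM in proliferating cells, each at least 2-fold (47.8%, 6.71% and 37.5% of all genes). In R1 they were 51.8 and 94.3 CPM. Gbp4 had its highest WT levels in T cells, with 116 CPM in CD4+ T (EM-like) and 110.5 CPM in gamma delta T cells, and 129 and 124 CPM in the Vsir-/- library. No cluster showed Gbp4 at least 2-fold higher, where 5.98% to 47.8% of all genes were. The 1 that showed it lower, pDC (41.6 and 16.9 CPM, 10.1% of all genes), rested on 11 WT UMIs of which 10 came from 1 cell. Gbp5, a GBP linked to NLRP3 inflammasome assembly, was scarce throughout. It was higher in Other R2 (22.6 and 63.4 CPM) and lower in neutrophils (35.9 and 14.2 CPM).

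The membrane regulators parted from each other. Irgm2, least abundant of the 3 in the WT library, passed the filter in 11 clusters. It was at least 2-fold higher in 6 of these, where 6.71% to 47.8% of all genes were, and lower in none, where 5.41% to 15.9% were. In NK cells, Other R2, proliferating cells and R1 Irgm2 had 19, 19, 17 and 17 WT UMIs. It passed there only with the UMIs of the Vsir-/- library, so the filter favoured a higher call. In NK cells, with 7 Vsir-/- UMIs, the interval of its log2 ratio was -0.04 to 2.76. Its levels in proliferating cells were 8.46 CPM (4.93 to 13.5) and 54.2 CPM (47.6 to 61.5), and in CD4+ T (non-EM-like) cells 16.2 and 57.2 CPM. Irgm1, whose loss in mice unleashes effector IRGs, was higher in 3 clusters (16.3% to 47.8% of all genes) and lower in 2 (10.1% to 10.6%). It read 29.6 and 105 CPM in CD4+ T (non-EM-like) cells and 38.3 and 111 CPM in proliferating cells, against 79.3 and 37.2 CPM in pDC and 96.3 and 47.6 CPM in neutrophils. In M2-like R2 macrophages, where Gbp2 was higher, Irgm1 was lower at 116 CPM (106 to 126) and 67.5 CPM (55.6 to 81.1). Igtp differed little in most clusters, with 103 and 109 CPM in CD4+ T (non-EM-like) cells and 101 and 129 CPM in CD4+ T (EM-like) cells. It passed 2-fold only in B cells (21.3 and 57.2 CPM) and, in the lower direction, in gamma delta T cells, where it had 41 WT and 8 Vsir-/- UMIs. In B cells with a Ptprc UMI and no endothelial UMI the log2 ratio of Igtp turned from 1.44 to -1.88. That value rests on few UMIs. The 51 Vsir-/- B cells with a Ptprc or T cell UMI held 18 Igtp UMIs before cells with endothelial UMIs were left out.

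Iigp1 and Ifi47, the effector-type IRGs, differed in opposite directions. Iigp1 was at least 2-fold higher in all 10 clusters in which it passed the filter, where 6.71% to 47.8% of all genes were. In B cells, Other R2, pDC and proliferating cells it had 5, 1, 1 and 16 WT UMIs. It passed there only through the Vsir-/- library, so the filter favoured a higher call. After subtraction of the profile of cells without T cell transcripts its log2 ratio turned to -1.26 in CD4+ T (EM-like) cells, -3.08 in CD8+ T (non-EM-like) cells and -3.73 in neutrophils. In CD8+ T (non-EM-like) cells and neutrophils no Vsir-/- Iigp1 UMIs were left, so these values rest on the 0.5 UMIs added. In CD8+ T (non-EM-like) cells, which had 16 Vsir-/- Iigp1 UMIs in all, the ratio was also -3.14 with at most 5% mitochondrial UMIs. In R1 macrophages Iigp1 was 40.3 CPM (26.8 to 58.2) in the WT library, its highest WT value, and 301 CPM (275 to 329) in the Vsir-/- library. The share of R1 cells with an Iigp1 UMI was 13.8% of 116 and 46.4% of 237 cells, and 5.51% and 15.6% after thinning, which left out 7 and 25 cells. In M2-like R2 macrophages it was 8.65 and 54.3 CPM, in CD4+ T (EM-like) cells 19.98 and 52.0 CPM, in pDC 3.78 and 27.1 CPM and in neutrophils 10.5 and 21.9 CPM. In Other R2 a single WT UMI stood against 59 in the Vsir-/- library (0.781 and 76.4 CPM), of which 25 were in 1 cell. CD8+ T (EM-like) cells had 0 Iigp1 UMIs in both libraries, at median depths of 3886 and 5236 UMIs, which allows up to 3.64 CPM in the WT and 18.1 CPM in the Vsir-/- library. Ifi47 was at least 2-fold higher in none of 13 clusters, where 5.98% to 47.8% of all genes were. It was lower in 3, where 10.1% to 10.7% of all genes were. Its ratio was above 1 in only B cells (60.02 and 72.4 CPM) and Other R2 (64.8 and 82.8 CPM). Its levels were 142 and 56.6 CPM in neutrophils, 185 and 60.9 CPM in pDC, and 202 and 68.1 CPM in CD4+ T (non-EM-like) cells. In CD4+ T (EM-like) cells they were 233 CPM (216 to 252) and 162 CPM (143 to 183).

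**Figure D3:**
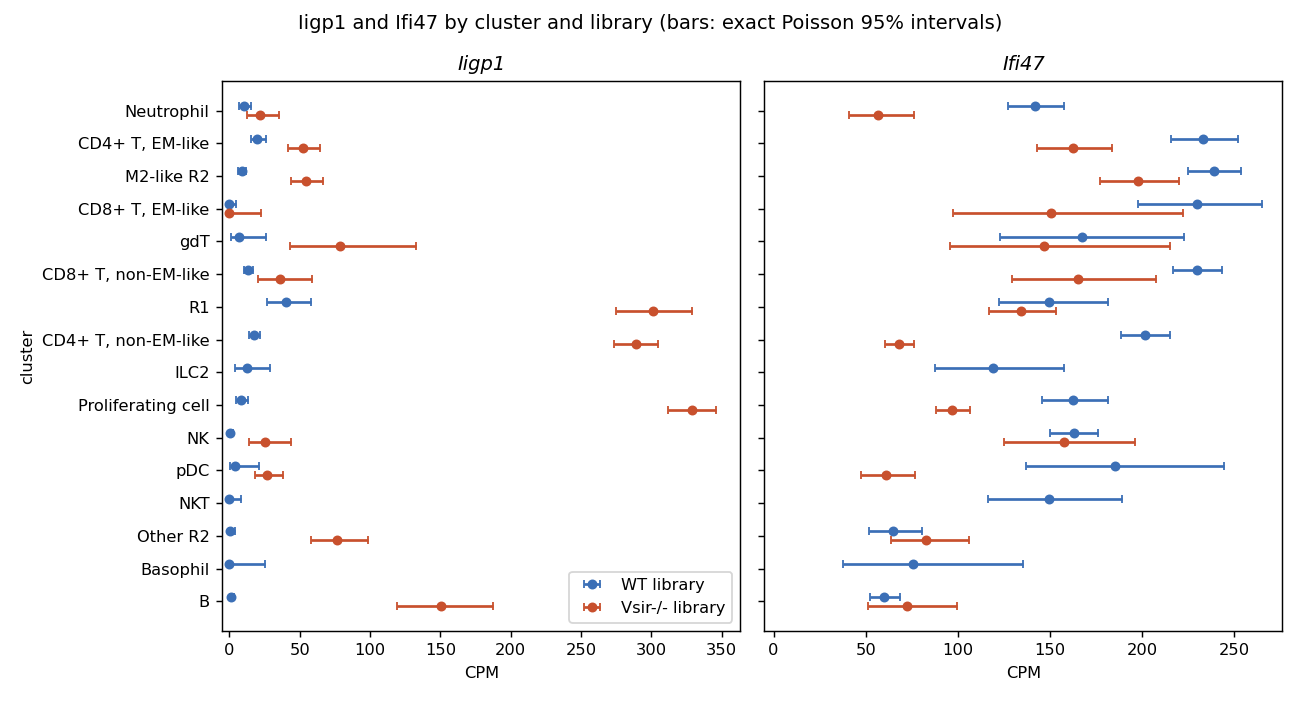
CPM of Iigp1 (left) and Ifi47 (right) on the horizontal axes by cluster (vertical axis), with blue points for the WT library, orange points for the Vsir-/- library and bars for exact Poisson 95% intervals. Iigp1 lies to the right in the Vsir-/- library in R1 (301 CPM), CD4+ T (non-EM-like, 289 CPM) and proliferating cells (329 CPM), and Ifi47 lies to the left there in most T cell clusters, neutrophils and pDC.

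Whether the loss of VISTA goes with a stronger interferon gamma response in each cell type is the question these genes bear on, and with 1 library per genotype it could not be tested. The count of members past 2-fold was therefore set against the share of all genes past the same fold and filter in the same cluster. Of the 130 pairs, 122 passed the filter, 33 were higher and 10 lower in the Vsir-/- library. By cluster, 5.98% to 47.8% of all genes were higher and 5.41% to 15.9% lower. Macrophages differed from each other. In Other R2, 6 of 10 members were higher (Gbp2, Gbp3, Gbp5, Gbp7, Irgm2 and Iigp1) where 6.71% of all genes were, and 0 were lower where 9.52% were. In R1, 3 of 10 were higher (Gbp7, Irgm2 and Iigp1) against 13.6% of genes and 0 lower against 8.78%. Irgm2 in Other R2 and R1 (19 and 17 WT UMIs) and Iigp1 in Other R2 (1 WT UMI) passed only with the Vsir-/- UMIs. In M2-like R2, 2 of 10 were higher (Gbp2 and Iigp1) against 8.11% and 0 lower against 7.61%. The summed genes read 358 and 687 CPM in Other R2, 567 and 1048 CPM in R1, and 715 and 878 CPM in M2-like R2. In Other R2 the endothelial list went from 148 to 802 CPM, in M2-like R2 from 52.6 to 131 CPM and in R1 from 67.6 to 1586 CPM. The lists of B cell and neutrophil genes were lower in the Vsir-/- library. The monocyte list was higher there in R1 (2312 and 4428 CPM) and Other R2 (7775 and 8075 CPM) and lower in M2-like R2 (27827 and 21959 CPM). B cell genes had 3400 and 14.2 CPM in Other R2, 3716 and 63.7 CPM in R1 and 891 and 20.3 CPM in M2-like R2. Neutrophil genes had 3581 and 211 CPM in Other R2 and 1724 and 129 CPM in R1. The part of these transcripts in the counts was not tested.

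In neutrophils and pDC more members were lower than higher. In neutrophils 4 of 10 members were lower (Gbp2, Gbp5, Irgm1 and Ifi47) against 10.6% of genes and 1, Iigp1, was higher against 9.99%. The summed genes were at 912 CPM in the WT and 470 CPM (423 to 520.5) in the Vsir-/- library there. In pDC 4 of 9 were lower (Gbp3, Gbp4, Irgm1 and Ifi47) against 10.1% and 2, Gbp2 and Iigp1, were higher against 11.9%. Of the lower ones, Gbp3 had 9 WT and 14 Vsir-/- UMIs and passed only with both libraries added. Gbp4 had 11 WT UMIs, 10 of them in 1 cell, and its ratio changed sign without the cell with most member UMIs in each library. Gbp2 had 5 WT and 50 Vsir-/- UMIs there and Iigp1 1 and 32, so both passed only through the Vsir-/- library. The interval of the Gbp2 log2 ratio was -0.16 to 2.85. The WT pDC cluster had 21 cells and 119 member UMIs, and all 5 of its marker genes had UMIs in both libraries, with 2414 and 1796 CPM in sum. Monocyte genes had 3192 and 1513 CPM there, B cell genes 2078 and 24.5 CPM and T cell genes 559 and 26.2 CPM. In neutrophils B cell genes had 517 and 16.7 CPM and T cell genes 451 and 55.3 CPM. Their part in the lower members was not tested.

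In lymphocytes known to produce interferon gamma the summed levels lay close together. In CD4+ T (EM-like) cells the summed genes were 773 CPM (740 to 806) and 780 CPM (737 to 825), with 1 of 10 members higher, Iigp1, against 10.4% of genes, and 0 lower against 5.41%. In CD8+ T (EM-like) cells, at 660 and 626 CPM, 0 of 8 members were higher against 6.03% and 0 lower against 9.98%. In NK cells, at 451 and 476 CPM, 1 of 9 was higher, Irgm2, against 9.86% and 0 lower against 7.01%. Irgm2 passed the filter in NK cells only with both libraries added (19 WT and 7 Vsir-/- UMIs). Ifng itself was higher in these clusters, with 175 and 444 CPM in CD4+ T (EM-like) cells, 171 and 1295 CPM in CD8+ T (EM-like) cells and 188 and 476 CPM in NK cells. The CD8+ T (non-EM-like) cells (631 and 547 CPM) had 1 of 10 members higher, Iigp1, against 11.1% and 0 lower against 9.66%. Gamma delta T cells (659 and 717 CPM) had 0 of 6 higher against 5.98% and 1 of 6 lower, Igtp, against 6.6%.

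Counts of 5 or 6 members were also reached in CD4+ T (non-EM-like), proliferating and B cells. In CD4+ T (non-EM-like) cells 5 of 10 members were higher, but 47.8% of all genes were, and 1, Ifi47, was lower against 10.7%. A list of 6 T cell genes had 5498 CPM in the WT and 399 CPM in the Vsir-/- cells of this cluster, and the tubule list 228 and 16458 CPM, so the Vsir-/- cells went against the cluster's name. With a Ptprc UMI and no endothelial UMI, Gbp7 and Irgm2 turned to log2 ratios of -0.53 and -0.017 there. In proliferating cells 5 of 10 were higher against 37.5% and 0 lower against 9%. Irgm2 and Iigp1, with 17 and 16 WT UMIs, passed there only with the Vsir-/- UMIs. In B cells 6 of 10 were higher against 16.3% and 0 lower against 15.9%. Iigp1 had 5 WT UMIs in B cells and passed only through the Vsir-/- library. The 88 Vsir-/- B cells held 331 member UMIs, of which 126 lay in 1 cell and 88.2% in the 9 cells with most. The tubule list there was 6542 CPM against 41.9 CPM in WT B cells, and the endothelial list 1828 against 147 CPM.

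**Figure D4:**
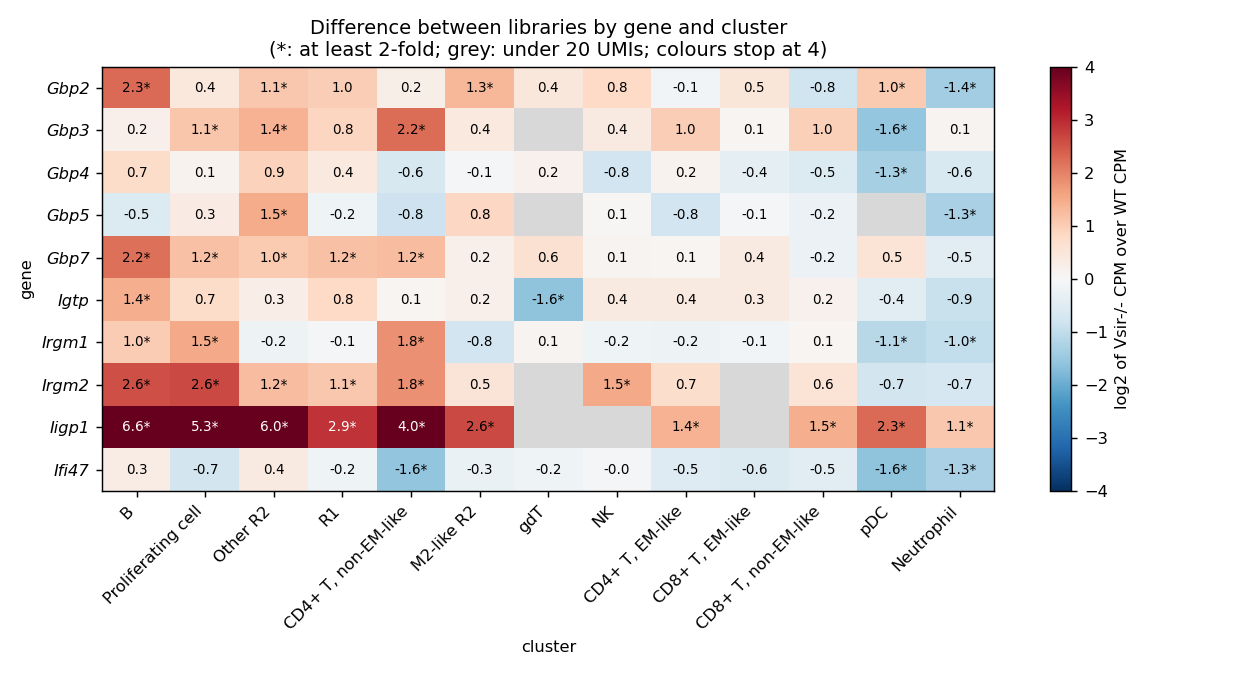
log2 of Vsir-/- CPM over WT CPM (colour and printed value) for each gene (rows) and cluster (columns, from the highest to the lowest ratio of the summed genes), with asterisks at 2-fold or more and grey where fewer than 20 UMIs were counted over both libraries. Iigp1 is red in every cluster with a value, Ifi47 is blue in most, and neutrophils and pDC hold most of the blue marks.

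The cells themselves were then grouped by the transcripts they held, independent of the members. Vsir-/- cells with a Ptprc or T cell UMI (1416 cells) had 835 CPM of the family and 167 CPM of Iigp1, and WT cells of that kind (5291) had 581 and 10.1 CPM. Of the 428 Vsir-/- cells with neither, 78 held more endothelial than tubule UMIs. These 78 cells had the highest family level of these groups, 1596 CPM (1539 to 1656), with Iigp1 at 544 CPM (510 to 579) in 70.5% of them. The 349 Vsir-/- cells with more tubule UMIs had 547 CPM (524 to 571), with Iigp1 at 140 CPM (128 to 152) and Ifi47 at 29.4 CPM. In the WT library 40 cells lacked Ptprc and T cell UMIs and held more endothelial UMIs, at 420 CPM of the endothelial list against 11363 CPM in the 78 Vsir-/- cells. They had 0 Iigp1 UMIs, and 34 of them lay in the B cell cluster. Iigp1 transcripts were thus present in Vsir-/- cells that carried endothelial or tubule transcripts and no Ptprc. The WT library held no such group at that endothelial level and only 10 cells with more tubule UMIs, so no comparison could be made.

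Vsir-/- cells with a Ptprc or T cell UMI also held endothelial transcripts (1913 CPM, against 89.3 CPM in WT cells). When only cells with a Ptprc UMI and no endothelial UMI were kept, a choice made after seeing the data, Iigp1 was still higher in R1 (log2 ratio 2.44), M2-like R2 (2.60) and CD4+ T (EM-like) cells (1.98). In CD8+ T (non-EM-like) cells it turned to -1.14, with 0 UMIs in 13 Vsir-/- cells. Other R2 then had 0 WT and 3 Vsir-/- Iigp1 UMIs, too few for a ratio. The summed genes then had log2 ratios of 0.74 in R1, 0.36 in Other R2, 0.05 in M2-like R2 and -0.01 in CD4+ T (non-EM-like) cells, where all cells had given 0.88, 0.94, 0.30 and 0.71. In neutrophils the value was -1.29, against -0.96 in all cells. Without Iigp1 the sum had log2 ratios of 0.50 in R1, 0.77 in Other R2, 0.61 in proliferating cells, 1.04 in B cells and 0.20 in CD4+ T (non-EM-like) cells.

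**Figure D5:**
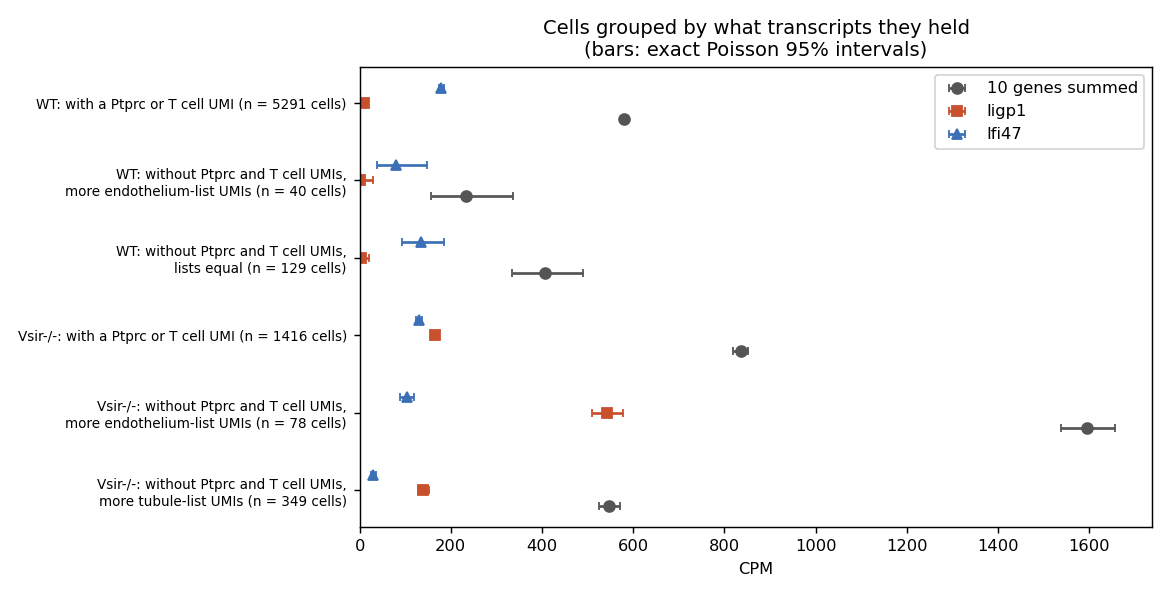
CPM (horizontal axis) of the 10 genes summed (grey circles), Iigp1 (orange squares) and Ifi47 (blue triangles) in cells of each library grouped by the transcripts they held (vertical axis), with bars for exact Poisson 95% intervals. The Vsir-/- cells with more endothelial UMIs lie farthest to the right for the sum (1596 CPM) and for Iigp1 (544 CPM).

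Within a library the family could be set beside the ligand. Among Vsir-/- CD4+ T (EM-like) cells with a T cell transcript, the 142 with an Ifng UMI had 884 CPM of the family (825 to 946) and the 101 without had 621 CPM (561 to 686). In the WT library the corresponding values were 810 CPM (758 to 864) in 176 cells and 748 CPM (707 to 790) in 308 cells. Ifi47 read 193 and 118 CPM in the Vsir-/- cells with and without Ifng. Cells with an Ifng UMI were deeper in both libraries, with medians of 6063 and 5665 UMIs in the Vsir-/- and 5396 and 4605 UMIs in the WT cells, and the part of depth was not tested. Among cells with a T cell transcript, CD8+ T (EM-like) cells with and without an Ifng UMI had 701 and 627 CPM in the WT library. In the Vsir-/- library they had 648 and 475 CPM, with 4 cells without Ifng. CD8+ T (non-EM-like) cells had 943 and 621 CPM in the WT library (12 cells with Ifng) and 562 and 552 CPM in the Vsir-/- library. The remaining clusters did not all share this direction. In proliferating cells with a T cell transcript the family had 777 CPM with and 1204 CPM without an Ifng UMI in the Vsir-/- library (32 and 34 cells), and 520 and 540 CPM in the WT library. In NK cells it had 442 and 460 CPM in the WT and 502 and 372 CPM in the Vsir-/- library, with 16 Vsir-/- cells without Ifng. The CD4+ T (non-EM-like) cells of the Vsir-/- library with a T cell transcript had 594 CPM in 7 cells with and 1268 CPM in 109 cells without an Ifng UMI. Vsir-/- cells with a Ptprc or T cell UMI held 5635 CPM of the endothelial list in proliferating cells. The value was 4217 CPM in CD4+ T (non-EM-like) cells, and the part of these transcripts was not tested.

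The rest of the pathway was read from lists. The receptor gene Ifngr1 was 285 and 231 CPM in R1 and 383 and 316 CPM in M2-like R2, and Irf1, an early target, was 119 and 122 CPM in R1 and 99.0 and 121 CPM in M2-like R2. Of the 14 signalling genes, 0 of 14 measured in M2-like R2 were at least 2-fold higher (8.11% of all genes) and 1 lower (7.61%), and 1 of 13 measured in R1 was higher (13.6%) and 0 lower (8.78%). Among 28 other interferon gamma targets, 7 of the 26 measured in M2-like R2 were higher, where 8.11% of all genes were, and 0 lower, with a median log2 ratio of 0.15 against 0.01 over all genes. In R1, 1 of 26 was higher (13.6% of all genes) and 0 lower, and in Other R2, 3 of 24 were higher (6.71%) and 2 lower (9.52%). The targets higher in M2-like R2 included H2-Aa (698 and 3341 CPM) and Cd74 (2673 and 8407 CPM), both of MHC class II presentation. Cxcl9, a chemokine that draws T cells, was at 2.96 and 112 CPM there. These and the signalling genes named here were chosen after their values were seen. Macrophage markers in that cluster had 670 and 1957 CPM and neutrophil markers 4300 and 241 CPM, and their part was not tested. In neutrophils 0 of 25 such targets were higher (9.99% of all genes) and 6 lower (10.6%), and in pDC 6 of 25 were higher (11.9%) and 1 lower (10.1%).

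Of 28 genes known best as type I interferon-stimulated, 12 of 27 measured in M2-like R2 were lower, where 7.61% of all genes were. There 0 were higher, where 8.11% were (median log2 ratio -0.93). In neutrophils 11 of 25 were lower (10.6% of all genes) and 0 higher (9.99%), with a median of -0.88. In pDC 13 of 22 were lower (10.1%) and 0 higher (11.9%), with a median of -1.17. In Other R2 6 of 25 were lower (9.52%) and 1 higher (6.71%), with a median of -0.76. Other clusters gave other counts. In proliferating cells 13 of 25 were higher (37.5% of all genes) and 1 lower (9%), with a median of 1.05. In CD4+ T (non-EM-like) cells 11 of 26 were higher (47.8%) and 6 lower (10.7%), and in B cells 6 of 25 were higher (16.3%) and 4 lower (15.9%). In R1 2 of 27 were higher (13.6%) and 3 lower (8.78%). The medians of the GTPases were 0.31 in M2-like R2 and 1.06 in Other R2, opposite in sign to this list, and -0.79 in neutrophils and -0.73 in pDC, the same in sign. A further list of 21 genes was drawn up as other interferon-induced GTPases, though not all of them, such as AW112010 and Irgc1, are known as such. Of these 18 were in the matrix. In Other R2 1 of 7 measured was higher (6.71% of all genes) and 2 lower (9.52%), and in R1 2 of 14 were higher (13.6%) and 4 lower (8.78%). In B cells 1 of 9 was higher (16.3%) and 4 lower (15.9%), and in M2-like R2 2 of 13 were higher (8.11%) and 3 lower (7.61%). The median log2 ratio of this list was above 0 only in R1 (0.10) and proliferating cells (0.41). It was -0.97 in B cells, -0.43 in Other R2 and -0.40 in M2-like R2. The 10 members had medians of 1.23, 1.06 and 0.31 there.

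Over the 29 cluster-by-library sums of at least 20 cells, the gene whose log2(CPM + 1) was most like that of the summed family, among 8775 candidates with at least 500 UMIs, was Gbp6, another GBP, with a Pearson r of 0.69. It was followed by Timp2 (0.68), Nfia (0.67), Parp10 (0.67), Rhoc (0.66), Galm (0.63), Atp11a (0.61), Nrp1 (0.61), Rasl11a (0.60) and Ctdspl (0.60). The sums share libraries, depth and free RNA, so these values are descriptions. Gbp6 itself was 8.63 and 41.2 CPM in R1, 23.9 and 71.6 CPM in CD4+ T (EM-like) cells and 3.90 and 23.3 CPM in Other R2. Over the same sums Iigp1 had an r of 0.68 with the endothelial list and 0.64 with the tubule list, Irgm2 0.64 and 0.54, and Ifi47 -0.49 and -0.29. These values pool both libraries and so hold the difference between them. Both lists were higher in the Vsir-/- library in every compared cluster, and Iigp1 in every one in which it passed the filter. The r with these lists was not computed within a library. With the other members of the family summed, Igtp had an r of 0.68 within the 16 WT sums and 0.63 within the 13 Vsir-/- sums. Ifi47 had 0.57 and 0.13, Gbp3 -0.18 and 0.77, and Irgm1 0.35 and 0.77. How closely these members followed the rest over clusters thus differed between the libraries, whose sums cover different sets of clusters.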

How the data were processed

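Transcripts of single kidney cells were captured in 1 WT and 1 Vsir-/- library with 10x 3′ chemistry. The authors ran Cell Ranger (version 3.1.0) on the reads, kept genes in 5 or more cells and cells with 200 or more UMIs and a mitochondrial share of at most 10%, used Seurat (version 3.2.3) and named the clusters. The deposited matrix gives raw UMI counts for each gene in each cell, not normalized. The deposited percent of mitochondrial UMIs per cell was used only for an alternative limit of 5%. The submitters' notes name mm9, while 97.8% of symbols are in GENCODE M21. Any removal of doublets is not given in the sources used here, and none was done.

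UMIs were summed per authors' cluster and library. CPM, exact Poisson intervals, and ratios with 0.5 UMIs added were computed in Python (version 3.11.15) with numpy (2.4.6), scipy (1.17.1) and pandas (2.3.3). Ratios needed 20 cells per library and 20 UMIs per gene, and past 2-fold counted as called. No p-value was computed, since cells are not replicates. Cells were thinned to 1000 UMIs without replacement. Depth was 32799550 and 18601189 UMIs, and clusters of 21 to 28 cells are the least precise. A count of 0 was read as allowing 3 counts. The ratio script was tested on simulated data. All 10 members were named, lists were given by counts, medians and their most abundant genes, and the members and lists were chosen with earlier results of these data known. Alternatives covered cells kept, depth, denominator, filters, subtraction of a profile and centring. The subtracted profile was that of Vsir-/- CD4+ T (non-EM-like) cells without T cell transcripts, scaled by the tubule list. It came from whole cells and not from free RNA. It took away 84.1% of Vsir-/- UMIs in that cluster and 33.4% in B cells.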

Additional observations from a re-analysis of the deposited data

Results flagged for a closer look

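In these data 5 members differed between the libraries in opposite directions in different clusters, by at least 2-fold each way. The difference between clusters was not tested, and the share of all genes that did the same was not counted. By cluster, 5.98% to 47.8% of all genes were higher and 5.41% to 15.9% lower. The count of 5 is therefore not read as a trait of these genes. Gbp2 had a log2 ratio (Vsir-/- over WT) of 2.26 in B cells and -1.38 in neutrophils. Its B cell value rested on 39 WT and 28 Vsir-/- UMIs, 10 of the latter in 1 cell. Gbp3 had 2.25 in CD4+ T (non-EM-like) cells and -1.55 in pDC, the latter from 9 WT and 14 Vsir-/- UMIs. Gbp5 had 1.48 in Other R2 and -1.28 in neutrophils. Igtp had 1.44 in B cells and -1.62 in gamma delta T cells. In B cells with a Ptprc UMI and no endothelial UMI Igtp had -1.88, from at most 18 Vsir-/- UMIs. Irgm1 had 1.82 in CD4+ T (non-EM-like) cells and -1.11 in pDC. In CD4+ T (non-EM-like) cells 47.8% of all genes were higher, and T cell genes had 5498 CPM in the WT and 399 CPM in the Vsir-/- library.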

How the results depend on the processing

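Of the member-by-cluster ratios, 33 were at least 2-fold higher in the Vsir-/- library, and this count was 16 after thinning to 1000 UMIs, 20 with at least 100 UMIs and 20 in cells with a Ptprc UMI and no endothelial UMI. Fewer ratios could be measured at these settings. Of the 43 ratios called in either direction, 18 still passed the filter after thinning and 34 in the last setting. The share of all genes past 2-fold was not computed at these settings. The last setting and the sum without Iigp1 were chosen after seeing the data. The 10 ratios at least 2-fold lower became 6 after thinning, 6 with at least 100 UMIs, 18 after subtraction of the profile of cells without T cell transcripts and 21 at 1.5-fold. The summed genes were 2-fold higher in 2 clusters, in 0 by the mean over cells, in 1 without the cell with most member UMIs, in 1 when centred on the median of all genes and in 5 at 1.5-fold. They were 2-fold lower in 0 clusters, in 1 with at most 5% mitochondrial UMIs, 1 after thinning, 1 without the top cell, 1 after subtraction and 2 at 1.5-fold. Without the top cell the B cell sum had a log2 ratio of 0.90, and centring gave -0.20 in CD4+ T (non-EM-like) cells. The rho of 0.06 between the orders became 0.19 with at most 5% mitochondrial UMIs, 0.41 after thinning, 0.38 by the mean over cells and 0.22 without the top cell. Single ratios changed sign in cells with a Ptprc and no endothelial UMI for Igtp in B cells (-1.88, at most 18 Vsir-/- UMIs). In the same cells this held for Gbp7 and Irgm2 in CD4+ T (non-EM-like) cells (-0.53 and -0.017). It also held for Iigp1 in CD8+ T (non-EM-like) cells (-1.14) and Gbp3 in proliferating cells (-0.85). With at most 5% mitochondrial UMIs the sign changed for Irgm1 in B cells (-0.14) and Iigp1 in CD8+ T (non-EM-like) cells (-3.14). After subtraction this held for Iigp1 in CD4+ T (EM-like) cells (-1.26), CD8+ T (non-EM-like) cells (-3.08) and neutrophils (-3.73). In CD8+ T (non-EM-like) cells and neutrophils the subtraction left no Vsir-/- Iigp1 UMIs, so these values rest on the 0.5 UMIs added. Without the top cell it held for Gbp4 in pDC (1.58). The cause of these changes was not tested. No paired analysis was possible because each genotype has 1 library. Clusters with 21 to 28 cells in a library limit what small differences can show.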
